A study of Homo sapiens with 3 samples.

Results

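CCNE1, MYBL2, RRM2, TYMS, EXO1 and MKI67, 6 of the 110 endogenous genes counted, are genes of cell cycle entry and S phase, and were taken by name from the panel. Barcode counts of these genes were compared between 3 subpopulations of MCF10A, a non-tumorigenic line of immortalised epithelial cells from the human breast. They are labelled stem, basal and luminal, and each gave 1 library. The labels state no treatment, genetic change, passage or method of separation for any of the 3, and the extraction kit they name is one for fixed tissue, not for cultured cells. By its title the study concerns Slug, a transcription factor, and its control of cell states.

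When a cell commits to division, cyclin D with its kinases begins to inactivate the retinoblastoma protein, which frees E2F transcription factors. E2F factors switch on CCNE1, whose product cyclin E with its kinase completes that inactivation, and they switch on genes for deoxynucleotide supply and replication, among them RRM2 and TYMS, and MYBL2 carries the programme on towards mitosis. In mammary tissue these genes are read as a proliferation signature. By role, CCNE1 encodes cyclin E1 and MYBL2 the transcription factor B-MYB. RRM2 encodes the small subunit of ribonucleotide reductase, which makes deoxynucleotides, and TYMS encodes thymidylate synthase, which makes the thymidine nucleotide for DNA. EXO1 encodes a DNA exonuclease of mismatch repair and recombination, and MKI67 encodes Ki-67, a nuclear protein of cycling cells used as a proliferation marker.

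In RefSeq annotation of GRCh38.p14, CCNE1 (probe target NM_001238.1) lies at chr19:29811991-29824312, MYBL2 (NM_002466.2) at chr20:43667114-43716482 and RRM2 (NM_001034.1) at chr2:10122568-10211010. TYMS (NM_001071.1) lies at chr18:657653-673578, EXO1 (NM_003686.3) at chr1:241847986-241889939 and MKI67 (NM_001145966.1) at chr10:128096659-128126423. The upstream sequence of the pair of nucleotide synthesis genes is shown because RRM2 and TYMS differed most clearly from each other in the counts, and that of MKI67 because its window held 2 kinds of motif. In the 250 bases before each RefSeq start, 3 motifs were searched on both strands. These were TTTNNCGC, which contains the E2F consensus, CCAAT, the box bound by NF-Y, and TTTGAA, the CHR element of cell cycle genes. Capitals mark the matches, and the RefSeq sequences run 5′ to 3′ on the strand of the gene, which is the minus strand for MKI67 and the plus strand for RRM2 and TYMS.
RRM2, chr2:10122608-10122637: aggcgcagCCAATgggaagggtcggaggca
RRM2, chr2:10122638-10122667: tggcacagCCAATgggaagggccggggcac
RRM2, chr2:10122665-10122694: caccaaagCCAATgggaagggccgggagcg
TYMS, chr18:657403-657652: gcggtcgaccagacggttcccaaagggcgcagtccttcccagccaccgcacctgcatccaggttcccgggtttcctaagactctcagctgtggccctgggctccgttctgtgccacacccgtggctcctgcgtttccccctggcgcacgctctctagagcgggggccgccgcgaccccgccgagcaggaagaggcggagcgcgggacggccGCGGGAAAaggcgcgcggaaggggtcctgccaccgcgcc
MKI67, chr10:128126424-128126673: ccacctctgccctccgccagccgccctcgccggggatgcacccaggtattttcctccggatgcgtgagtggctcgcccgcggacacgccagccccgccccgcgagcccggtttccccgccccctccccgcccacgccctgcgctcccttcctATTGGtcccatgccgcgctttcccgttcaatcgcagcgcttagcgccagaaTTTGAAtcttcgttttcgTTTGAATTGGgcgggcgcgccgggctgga
RRM2 has 2 annotated starts. Before the downstream start, CCAAT occurred 3 times, at 123, 93 and 66 bases from it, and the 3 copies shared a run of 15 bases, agCCAATgggaaggg. Before the upstream start it occurred 1 time. The TYMS window held 1 match to TTTNNCGC, which reads GCGGGAAA on the strand of the gene, 39 to 32 bases before the start. The MKI67 window held TTTGAA 2 times and CCAAT 2 times on the opposite strand, the second CHR element sharing 1 base with a CCAAT box. Among all 35116 RefSeq windows of this length, 5.92% held TTTNNCGC, 32.0% held CCAAT and 13.3% held TTTGAA. EXO1 held 1 match to TTTNNCGC before one of its 2 starts, and no match to these 3 motifs was found in the windows of CCNE1 and MYBL2. A match is a description of the letters only.

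The endogenous counts summed to 792367 in the stem, 8891 in the basal and 9136 in the luminal library, so the depth of the stem library far exceeds that of the others. Background, the mean plus 2 SD of the 8 negative control probes, lay at 18.9 counts in stem, 1 in basal and 1.83 in luminal, and all 6 genes were above it in every library. In basal it equals the lowest value listed for any probe, so that 2 counts, as CCNE1 had, already pass it. Levels are given as normalised counts, the raw count per 100 of the geometric mean of 5 housekeeping genes in the same library. All intervals cover 95% and counting error only, and with 1 library per subpopulation no difference has a replicate check and no p-value is given. Levels of different genes were not set against each other, since each probe has its own efficiency. Of the 7 luminal marker genes on the panel, 7 were above background in stem, 3 in basal and 4 in luminal. KRT19, GATA3 and ESR1 were at the lowest listed value in the basal and luminal libraries, and EPCAM in the basal library. Of the 105 non-housekeeping genes, 0 were at that value in stem, 31 in basal and 29 in luminal. With depths this unlike, the numbers of markers detected do not compare their levels. The 4 basal markers and 2 mesenchymal markers on the panel were above background in each library, and no immune, endothelial, fibroblast or adipocyte marker of the lists was on it. Summed normalised counts of the luminal markers were 660.3 in stem, 918.2 in basal and 923.2 in luminal, those of the basal markers 1245, 1572 and 1470 in that order, and those of the mesenchymal markers 110.1, 173.2 and 128.3. Their part in the results below was not tested.

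The 6 genes together took 3.61% of the endogenous counts in the stem library (exact interval 3.57% to 3.66%), against 2.51% in the basal (2.19% to 2.85%) and 2.15% in the luminal library (1.86% to 2.46%). The share was thus highest in stem, with an interval apart from the others, while those of basal and luminal overlapped. RRM2 alone gave 10462 of the 28639 counts of the 6 genes in stem, 50 of 223 in basal and 61 of 196 in luminal. The share also depends on the other genes counted. The housekeeping gene RPLP0 had 138817 counts in stem, 2292 in basal and 2040 in luminal. How far either gene sets the share was not tested here. In RNA from many cells, a larger share of cycling cells and more RNA per cycling cell cannot be told apart.

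**Figure D1:**
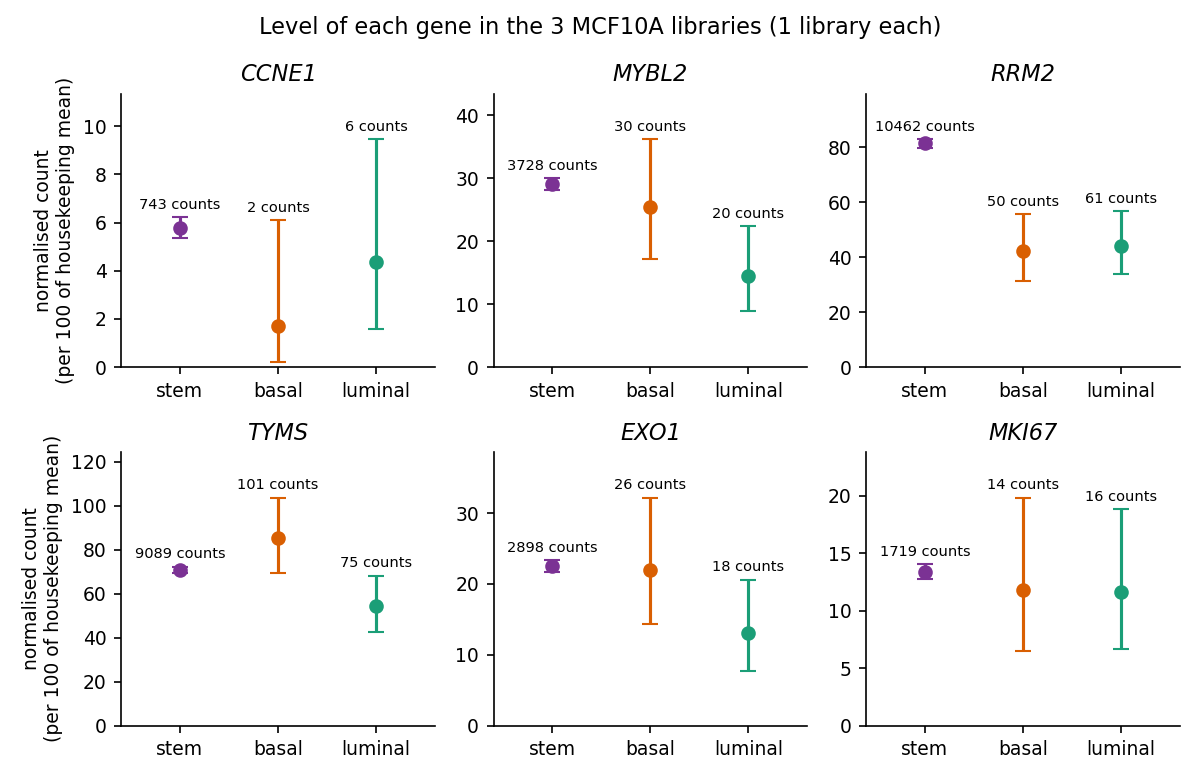
Normalised count (per 100 of the housekeeping geometric mean) of each gene in the stem, basal and luminal libraries, with 1 library each. Bars are 95% exact Poisson intervals, raw counts stand above them, and the stem value of RRM2, at 81.4, lies above the intervals of the basal and luminal libraries.

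RRM2 had the clearest pattern of the 6 genes. It had 10462 raw counts in stem, 50 in basal and 61 in luminal, which gave normalised counts of 81.4 (79.9 to 83.0), 42.2 (31.3 to 55.7) and 44.2 (33.8 to 56.8) in that order. The stem library was high, and the basal and luminal libraries overlapped. The log2 ratio was 0.95 (0.55 to 1.38) for stem over basal, a 1.93-fold difference, and 0.88 (0.52 to 1.27) for stem over luminal, a 1.84-fold difference. For basal over luminal it was -0.07 (-0.63 to 0.50). RRM2 thus stayed just under the 2-fold limit of the rule of size used here, which asks for at least 2-fold, an interval excluding 1 and, in either library compared, a raw count over background. Under 10 alternative scalings, background subtraction among them, its log2 ratio for stem over basal lay between 0.74 and 1.41, and for stem over luminal between 0.65 and 2.65, and its interval excluded 1 in 10 of 10 for each. For stem over basal it passed the 2-fold limit by total count at 1.23, without MRPL19 at 1.03, without SF3A1 at 1.11 and on the scales of the 6 positive controls at 1.41 and of probes A to D at 1.07. For stem over luminal it passed without MRPL19 at 1.006 and on the same positive control scales at 2.54 and 2.65. For basal over luminal these 2 positive control scales gave 1.13 and 1.58, with intervals excluding 1.

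TYMS, the other nucleotide synthesis gene, was ordered differently. It had 9089 counts in stem, 101 in basal and 75 in luminal, and normalised counts of 70.8 (69.3 to 72.2), 85.3 (69.5 to 103.7) and 54.4 (42.7 to 68.1). Basal was highest and luminal lowest, with stem between them and inside the interval of basal. Its log2 ratio was 0.65 (0.21 to 1.10) for basal over luminal and 0.38 (0.05 to 0.73) for stem over luminal. Between stem and basal it was -0.27 (-0.55 to 0.03). The interval for basal over luminal included 1 when SF3A1 was left out of the scale, at 0.42. That for stem over luminal did so under median of ratios, at 0.14, and without RPLP0 or SF3A1. For stem over basal TYMS was lower with an interval excluding 1 under 4 of 10 alternative scalings, the lowest at -0.48 without RPLP0. The sign turned under scaling by total count and by the 6 positive controls, to 0.01 and 0.19, each with an interval including 1.

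MYBL2 and EXO1 were both lowest in luminal. MYBL2 had 3728 counts in stem, 30 in basal and 20 in luminal, and normalised counts of 29.0 (28.1 to 29.97), 25.3 (17.1 to 36.2) and 14.5 (8.85 to 22.4). Its log2 ratio for stem over luminal was 1.002 (0.37 to 1.71), just past the 2-fold limit at 2.002-fold. For stem over basal it was 0.20 (-0.32 to 0.77) and for basal over luminal 0.81 (-0.06 to 1.70). EXO1 had 2898 counts in stem, 26 in basal and 18 in luminal, and normalised counts of 22.6 (21.7 to 23.4), 21.96 (14.3 to 32.2) and 13.0 (7.73 to 20.6). Stem and basal lay close together and luminal lay lower, though basal and luminal overlapped in both genes. The log2 ratio of EXO1 was 0.79 (0.13 to 1.55) for stem over luminal, 0.04 (-0.52 to 0.66) for stem over basal and 0.75 (-0.17 to 1.70) for basal over luminal. The interval of EXO1 for stem over luminal included 1 under median of ratios. That of MYBL2 excluded 1 under 10 of 10 scalings, but its log2 ratio was below the 2-fold limit when RPLP0 (0.89) or SF3A1 (0.94) was left out of the scale, and by median of ratios (0.77).

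CCNE1 and MKI67 had few counts in the shallow libraries and were not separated on the housekeeping scale. For stem over luminal both had intervals excluding 1 on the 2 positive control scales only, as MKI67 did for basal over luminal. CCNE1 had 743 counts in stem, 2 in basal and 6 in luminal, and normalised counts of 5.78 (5.38 to 6.22), 1.69 (0.20 to 6.10) and 4.35 (1.60 to 9.46). Basal was lowest, but the 3 intervals overlapped. The log2 ratio was 1.78 (-0.08 to 4.82) for stem over basal and 0.41 (-0.72 to 1.86) for stem over luminal. Basal over luminal gave -1.36 (-4.70 to 1.12). The interval for stem over basal excluded 1 under 6 of 10 other scalings, and all of these rest on the same 2 basal counts. MKI67 had 1719 counts in stem, 14 in basal and 16 in luminal, and normalised counts of 13.4 (12.8 to 14.03), 11.8 (6.47 to 19.8) and 11.6 (6.63 to 18.8), so that the libraries overlapped throughout. Its log2 ratio was 0.18 (-0.57 to 1.05) for stem over basal and 0.21 (-0.50 to 1.02) for stem over luminal. It was 0.03 (-1.12 to 1.16) between basal and luminal. These intervals leave room for a 2-fold difference in either direction between basal and luminal, and for a 2-fold higher level in stem.

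**Figure D2:**
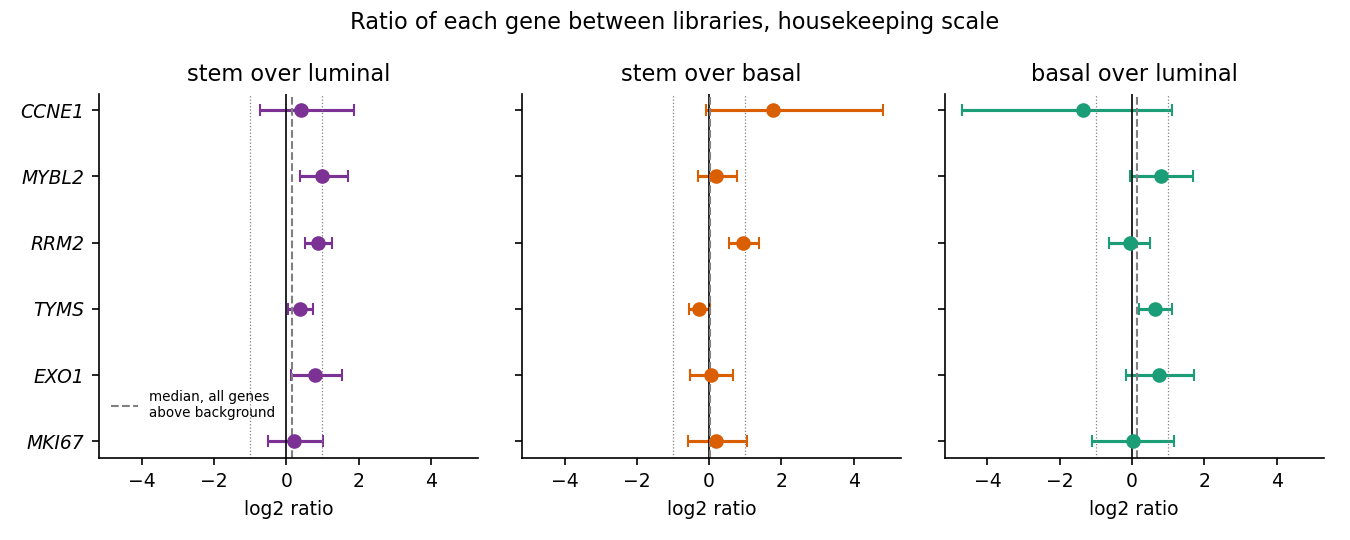
Log2 ratio of each gene for stem over luminal, stem over basal and basal over luminal on the housekeeping scale, with 95% counting intervals. Dotted lines mark 2-fold and the dashed line the median of all genes above background. RRM2 lies to the right of 0 with its whole interval in both stem panels and across 0 for basal over luminal, where TYMS has the only interval above 0.

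Set against all genes, the 6 genes stood as follows. A gene entered a comparison when it was above background in either of the 2 libraries. The 94 genes compared with stem were above it in stem, while 74 genes were so in basal and 76 in luminal. Genes at the lowest listed value in a shallow library are thus among them, and have wide intervals. How far depth of counting sets the shares and medians over all genes was not tested. For stem over luminal, 4 of 6 had intervals excluding 1 and were higher in stem (RRM2, MYBL2, EXO1 and TYMS), where 20.2% of the 94 genes above background did so. None of the 6 was lower with such an interval (4.26% of all). Their median log2 ratio was 0.60, against 0.16 for all genes above background, with a range of 0.21 to 1.002. The rule of size was passed by 1 of 6, MYBL2, against 4.26% of all genes. For stem over basal, 1 of 6 was higher with an interval excluding 1, RRM2, against 12.8% of all genes, and 0 were lower, against 11.7%. The median was 0.19, against 0.03 for all genes, and 0 of 6 passed the rule of size, against 3.19%. For basal over luminal, 1 of 6 was higher with an interval excluding 1, TYMS, against 12.7% of 79 genes, and 0 were lower, against 3.8%. The median was 0.34, against 0.14, and 0 of 6 passed the rule of size, against 2.53%. The scale by median of ratios rests on the genes above background in every library and the housekeeping genes. Measured from that median, the 6 genes had medians of 0.37 for stem over luminal, 0.02 for stem over basal and 0.18 for basal over luminal. For stem over basal their median thus lay close to that of the genes counted in every library. In rank from the highest ratio, MYBL2 was number 4, RRM2 number 9 and EXO1 number 11 of 94 for stem over luminal, and CCNE1 was number 5 and RRM2 number 8 for stem over basal. The 3 comparisons share libraries, so their counts are not independent of each other. With the counting error of the housekeeping scale added to the intervals, the numbers of the 6 genes higher were the same, 4 for stem over luminal, 1 for stem over basal and 1 for basal over luminal. Over all genes they were then 16 of 94 higher and 4 lower for stem over luminal, 8 higher and 8 lower of 94 for stem over basal, and 9 higher and 3 lower of 79 for basal over luminal.

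The scale between libraries decides how far any of these ratios lies from 0. The 6 positive control probes, RNA spiked in apart from the sample, summed to 69670 counts in stem, 776 in basal and 2795 in luminal, that is 11.4, 11.5 and 3.27 endogenous counts per spike count. The positive control scale is the geometric mean of the 6 probes, not these sums. It adds 1.66 to every log2 ratio for stem over luminal, 0.47 for stem over basal and 1.19 for basal over luminal. The median over all genes moves equally, and reaches 1.81 for stem over luminal, where 6 of 6 genes then pass the rule of size. For basal over luminal it reaches 1.33, and 5 of 6 pass. The share of all genes passing on this scale was not counted, so these numbers do not set the 6 genes apart from the panel. Median of ratios lowers the log2 ratios by 0.24, 0.17 and 0.16 for stem over luminal, stem over basal and basal over luminal. The 5 housekeeping genes did not move alike, with log2 ratios from -0.84 for RPLP0 to 0.66 for SF3A1 for stem over basal.

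**Figure D3:**
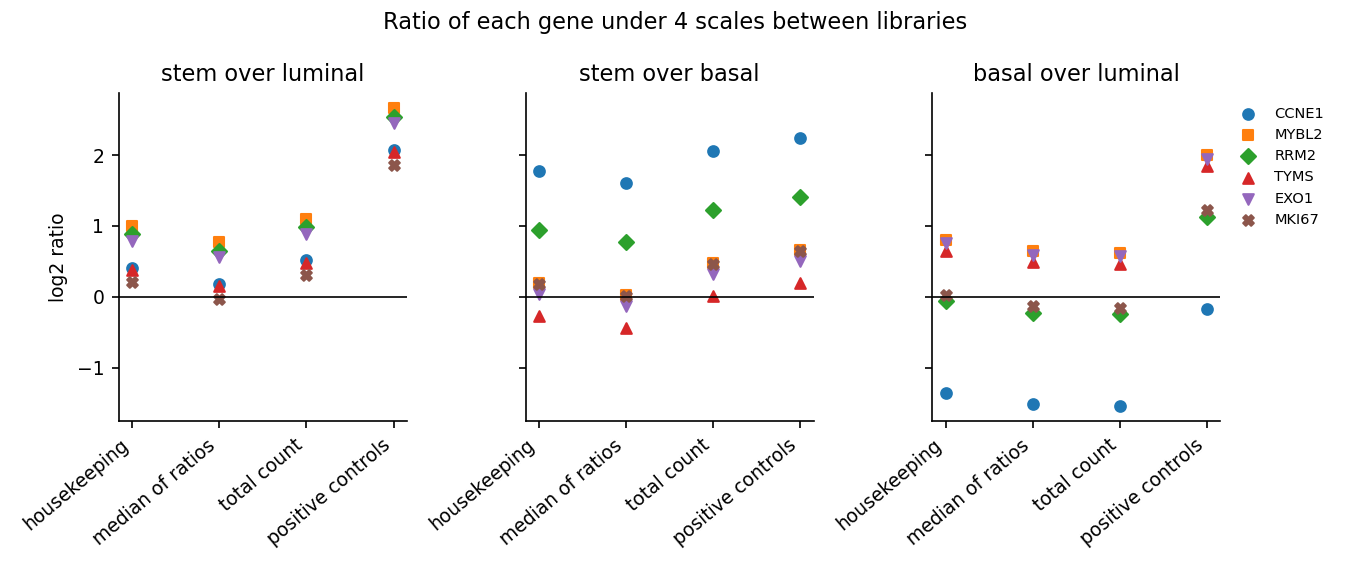
Log2 ratio of each gene under 4 scales between libraries, in 1 panel per comparison. The distances between genes within a panel are the same under each scale, while the whole set shifts, most under the positive controls for stem over luminal and basal over luminal.

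Ratios between genes within a library do not depend on the scale, and probe efficiency cancels when such a ratio is compared between libraries. Among the 6 genes, 15 pairs were compared in each of the 3 comparisons, 45 in all, and 4 had an exact odds ratio interval excluding 0 on the log2 scale, each for stem over basal. RRM2 was counted 1.15 times per TYMS count in stem and 0.495 times in basal, a 2.33-fold difference with a log2 value of 1.22 (0.71 to 1.74). With an interval that leaves 0.1% outside, from 0.39 to 2.09, this was the only pair of the 45 that still excluded 0. RRM2 per EXO1 was 3.61 in stem and 1.92 in basal, a log2 difference of 0.91 (0.16 to 1.62). RRM2 per MYBL2 was 2.81 in stem and 1.67 in basal, a log2 difference of 0.75 (0.05 to 1.44). The remaining pair, CCNE1 per TYMS, was 0.0817 in stem and 0.0198 in basal, a log2 difference of 2.05 (0.15 to 5.11) that rests on 2 counts of CCNE1 in basal. So the gap between RRM2 and TYMS for stem over basal holds on any scale, whereas the 95% intervals were not adjusted for the number of pairs.

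Against luminal the same ratios were not separated. RRM2 per TYMS was 1.15 in stem and 0.813 in luminal, a log2 difference of 0.50 (-0.01 to 1.01). Between basal and luminal it was 0.495 in basal and 0.813 in luminal, a log2 difference of -0.72 (-1.45 to 0.01). RRM2 per MYBL2 was 2.81 in stem and 3.05 in luminal, a log2 difference of -0.12 (-0.93 to 0.63). MYBL2 per EXO1 lay at 1.29 in stem, 1.15 in basal and 1.11 in luminal. Its log2 difference was 0.16 (-0.66 to 0.97) for stem over basal and 0.21 (-0.80 to 1.21) for stem over luminal.

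**Figure D4:**
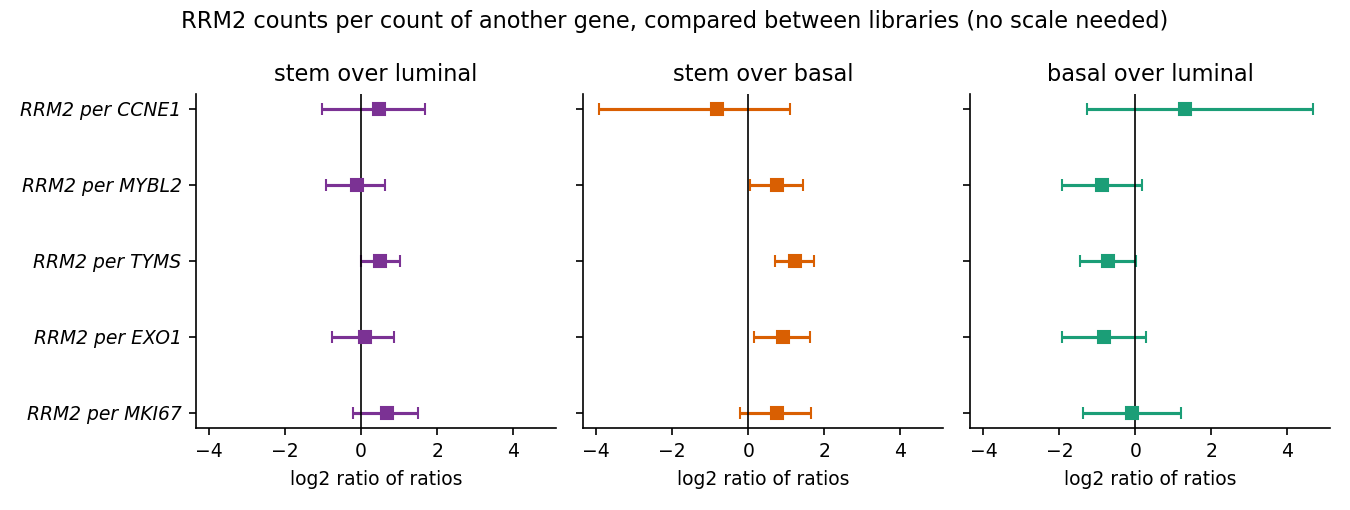
Log2 difference between libraries in the number of RRM2 counts per count of each other gene, with 95% exact odds ratio intervals, which need no scale between libraries. For stem over basal the intervals per MYBL2, TYMS and EXO1 lie above 0, and each interval in the panels for stem over luminal and basal over luminal includes 0.

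Other cell cycle genes on the panel were taken from lists of replication genes, mitosis genes and entry regulators. Of 19 replication and S-phase genes listed, CDC6, a loader of the replicative helicase, ORC6L, a subunit of the origin recognition complex, and UBE2T, a ubiquitin-conjugating enzyme of DNA crosslink repair, were on the panel. Of these 3, 0 had an interval excluding 1 for stem over luminal or basal over luminal. UBE2T was lower in stem, with a log2 ratio to basal of -0.54, 2544 counts in stem and 34 in basal, and its interval included 1 once the counting error of the scale was added. CDC6 had 2181 counts in stem, 16 in basal and 14 in luminal, with a log2 ratio of 0.74 (-0.01 to 1.62) for stem over luminal. The 3 genes had a median of 0.32 for stem over luminal, 0.33 for stem over basal and 0.41 for basal over luminal.

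Of 20 mitosis genes listed, 12 were on the panel and above background. For stem over luminal 5 were higher with an interval excluding 1 (20.2% of all genes above background) and 0 were lower (4.26%). The median was 0.60 for the 6 S-phase and entry genes, against 0.41 for the mitosis genes. BIRC5, which encodes the mitotic regulator survivin, had the highest ratio of the 12 at 1.01 (0.55 to 1.51), and CENPF, a kinetochore protein, followed at 0.89 (0.42 to 1.40). The median for stem over basal was 0.19 for the 6 genes, against -0.17 for the mitosis genes. Between stem and basal 1 mitosis gene was higher (12.8% of all genes above background) and 3 were lower in stem (11.7%). Those lower in stem were CCNB1, mitotic cyclin B1, at -0.69 (-0.93 to -0.45), NUF2, a kinetochore subunit, at -0.63 (-1.13 to -0.08), and UBE2C, which marks mitotic proteins for destruction, at -0.33 with an interval ending just below 0. With the counting error of the scale added, the numbers for stem over basal were 0 higher and 2 lower, since the intervals of CENPF and UBE2C then included 1. Disagreement among the housekeeping genes is not part of that error. For stem over luminal the same step left 4 higher, without CDC20. For basal over luminal 5 of 12 were higher (12.7% of all genes above background) and 0 lower (3.8%). The median was 0.34 for the 6 genes, against 0.59 for the mitosis genes. RB1, the retinoblastoma gene whose protein holds E2F factors in check, had 3982 counts in stem, 23 in basal and 26 in luminal. Its log2 ratio was 0.67 (0.09 to 1.33) for stem over basal and 0.72 (0.16 to 1.33) for stem over luminal. MYC, the other entry regulator on the panel, had intervals that included 1 in each comparison.

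**Figure D5:**
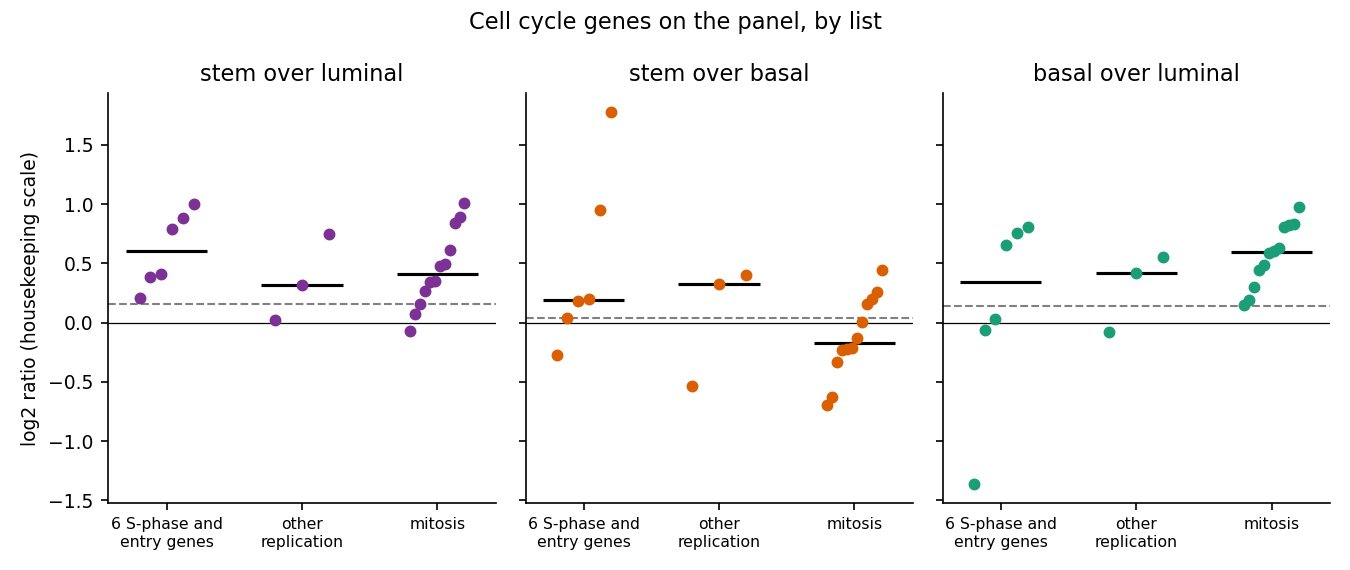
Log2 ratios on the housekeeping scale of the 6 S-phase and entry genes, 3 other replication genes and 12 mitosis genes (points), with list medians (black bars) and the median of all genes above background (dashed line). For stem over basal the median of the 6 genes is 0.19 and that of the mitosis genes -0.17.

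The 6 genes were also set against the summed counts of the 12 mitosis genes, again with no scale. Per 100 mitosis counts, RRM2 had 14.8 counts in stem, 6.83 in basal and 10.3 in luminal. The log2 difference was 1.12 (0.70 to 1.56) for stem over basal and 0.53 (0.15 to 0.94) for stem over luminal, and it was -0.59 with an upper bound of 0.002 for basal over luminal. Leaving out each mitosis gene in turn kept the value for stem over basal between 1.01 and 1.17. TYMS had 12.9, 13.8 and 12.6 counts per 100 in stem, basal and luminal, with differences of -0.10 (-0.40 to 0.22) for stem over basal and 0.03 (-0.32 to 0.40) for stem over luminal. The log2 difference of MYBL2 for stem over luminal was 0.65, with a lower bound of 0.01. That of CCNE1 for stem over basal was 1.94, with a lower bound of 0.08, and rests on 2 basal counts. All 6 genes summed had 40.5 counts per 100 in stem, 30.5 in basal and 32.9 in luminal, with differences of 0.41 (0.19 to 0.64) for stem over basal and 0.30 (0.06 to 0.54) for stem over luminal. Without RRM2 the other genes came to 25.7, 23.6 and 22.7 per 100, and the differences to 0.12 (-0.12 to 0.37) and 0.18 (-0.09 to 0.46). RRM2 was left out with its high stem value already known, so that a lower difference without it was fixed by that choice. Leaving out each of the other genes in turn, a step added after seeing the data, gave differences of 0.39 to 0.73 for stem over basal and 0.25 to 0.44 for stem over luminal, and each of these intervals excluded 0. Each of these sums kept RRM2, so they cannot show whether the difference is shared by the other genes.

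Genes with the most similar profile were found by the distance between log2 normalised counts over the 3 libraries, each gene centred on its own mean, among 70 other genes above background in every library. BIRC5 was nearest to MYBL2, at a distance of 0.004 against a median of 0.72 over all candidates, with 7106 counts in stem, 57 in basal and 38 in luminal, and RAD50, a protein of DNA break repair, was next at 0.14. MYBL2 had only 30 basal and 20 luminal counts, with normalised intervals of 17.1 to 36.2 and 8.85 to 22.4. A distance of 0.004 is therefore far finer than the counting error. For RRM2 the nearest was FABP5, a fatty acid binding protein, at 0.09 against a median of 0.74, and next was CDH3, which encodes P-cadherin, at 0.19. For TYMS the nearest was CEP55, a protein of the last step of cytokinesis, at 0.10, and next was GRB7, an adaptor protein with 3 basal and 2 luminal counts, at 0.11. For EXO1 it was PHGDH, an enzyme of serine synthesis, at 0.15, followed by MYBL2 at 0.16. For MKI67 it was PLOD1, a collagen lysyl hydroxylase, at 0.10, followed by CDC20, an activator of the anaphase-promoting complex, at 0.12. For CCNE1 it was GPR160, which had 2 basal and 6 luminal counts like CCNE1 itself, so that this likeness rests on very few counts, and next was ESRP1, an epithelial splicing regulator, at 0.74. Likeness over 3 libraries is a description with 3 points per gene.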

How the data were processed

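RNA of 3 MCF10A subpopulations was counted on the NanoString nCounter, which counts colour-coded probes singly without amplification, with 1 library each. The authors deposited raw counts per probe, per the file headers, with a lowest listed value of 1, so that a listed 1 may be a 0. They also deposited log2 values for 105 genes, tested here to be each gene's log2 count minus the mean log2 count of ACTB, MRPL19, PSMC4, RPLP0 and SF3A1, to within 3.53e-09. RNA was prepared by the manufacturer's protocol, per the labels' protocols, and software versions are not given in the sources used here. Raw counts were used throughout, with Python 3.11.15, NumPy 2.4.6, SciPy 1.17.1 and matplotlib 3.10.9. Ratios have 95% exact conditional (Clopper-Pearson) intervals, levels exact Poisson intervals and ratios between genes exact conditional odds ratio intervals, all for counting error only. The interval functions were tested on simulated data, drawn from the counting model they assume with the scale between libraries known. That test checks the code only, and covers neither error of the scale nor spread beyond counting. The named genes are the 6 genes, the panel members of the listed cell cycle genes with intervals excluding 1 and the 2 nearest profiles of each gene. CDC6, MYC and the examples among lists were chosen after their values were seen. The genes and lists were chosen with earlier results of these data known. Probe accessions of the 6 genes were matched without version to RefSeq of GRCh38.p14 (6 of 6), which also gave the promoter windows. Alternatives covered the scale, background, fold limit and interval.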

Additional observations from a re-analysis of the deposited data

How the results depend on the processing

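With 1 library per subpopulation no replicate could be left out. No paired analysis was possible because each group holds 1 library and the result comes from no test. Of 198 values of single genes under other scalings and the deposited log2 values, 174 stayed within their 95% counting interval and 24 moved outside it, all 24 on a positive control scale. The deposited values are on the housekeeping scale themselves, so they could not move, and they are counted among the 174. No value with an interval excluding 1 on the housekeeping scale changed sign. RRM2 for basal over luminal turned from -0.07 to 1.13 and 1.58 on the 2 positive control scales, with intervals excluding 1. For stem over luminal the number of the 6 genes past the rule of size, 1 as reported, was 6 on the scale of the 6 positive controls and with probes A to D alone (chosen after seeing the data), 2 without MRPL19, 3 at a 1.5-fold limit, and 0 under median of ratios, without RPLP0, without SF3A1 and at 3-fold. The number higher with an interval excluding 1, 4 as reported, was 6 on either positive control scale, 3 without RPLP0 or SF3A1, and 2 under median of ratios and with intervals that leave 0.1% outside. The median log2 ratio was 2.26 on the scale of 6 positive controls and 2.37 with probes A to D. For stem over basal the number past the rule of size, 0 as reported, was 2 on either positive control scale, by total count and without MRPL19 or SF3A1, and 1 with negative controls subtracted or at 1.5-fold. The number higher, 1 as reported, was 3 on the scale of 6 positive controls and 2 with probes A to D, by total count, without MRPL19 or SF3A1 and with negative controls subtracted. The number lower, 0 as reported, was 1, which was TYMS, under median of ratios, without PSMC4 or RPLP0 and with negative controls subtracted. Pairs of genes with intervals excluding 0, 4 as reported, were 1 with intervals that leave 0.1% outside and 5 with negative controls subtracted. For basal over luminal the number past the rule of size, 0 as reported, was 5 on either positive control scale and 1 at 1.5-fold. The number higher, 1 as reported, was 5 on either positive control scale, 2 without PSMC4 or RPLP0, and 0 without SF3A1 and with intervals that leave 0.1% outside. The median was 1.53 with 6 positive controls and 1.99 with probes A to D. The cause of these shifts was not tested beyond their construction. Shares of all genes under these other settings were not counted, so the numbers do not set the 6 genes apart from the panel. Depth in the basal and luminal libraries limits each ratio, CCNE1 and MKI67 most.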
